A study of Mus musculus with 9 samples.

Results

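The genes described here encode galectins, S100 proteins, annexins and the large or filamentous proteins found with them, and they were measured in mouse regulatory T (Treg) cells. They were chosen by name, as the rows Lgals1, Lgals3, S100a4, S100a6, S100a10, S100a11, Anxa1, Anxa2, Ahnak and Vim. The proposal was made with the log2 differences of the deficient cells from both controls already known. The differences of these 10 genes in those comparisons are therefore given as a description, without a p-value. All 10 were present among the 13698 genes of the deposited table.

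The table holds 9 RNA-seq libraries, 3 in each of 3 groups, from mice of a mixed C56Bl6/129 background (written so in the labels). The deficient cells were sorted as YFP-positive and MHC class II-negative from LRFffThpokff Foxp3 Cre-YFP/X females, in which Cre and YFP are made from the X-linked Foxp3 locus, so that deletion was directed to cells expressing that allele. Animal controls were YFP-negative, MHC class II-negative, CD25hi cells of those same 3 mice, which use the unmodified Foxp3 allele and keep Thpok and LRF. Genetic controls were YFP-positive, MHC class II-negative cells of 3 WT Foxp3 Cre-YFP/X females. All cells came from spleen and lymph node, and all 3 groups came from females carrying 1 Foxp3-YFP-Cre allele. Ages, cell numbers and any pooling of animals were not given in the sources used here.

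Galectins are lectins that bind galactose-containing glycans on surface receptors, and galectin-1 is one of the soluble proteins through which Treg cells act on other T cells. S100 proteins are small calcium-binding proteins that act as dimers. S100A10 differs in that its calcium-binding loops are inactive, and it binds annexin A2 in a complex at the inner face of the plasma membrane. Annexins bind membrane phospholipids in the presence of calcium. AHNAK is a very large scaffold protein that associates with the annexin A2 and S100A10 complex, and vimentin is the intermediate filament protein of lymphocytes and mesenchymal cells. In T cells the transcripts of this group are known to be higher in activated and memory cells than in naive cells.

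Values were read, from the numbers themselves, as log2 CPM that had been quantile-normalized across the libraries. CPM are read counts scaled so that libraries have equal totals. Levels below are CPM, with mean ± SD and n = 3 libraries per group. Differences are log2 ± SE, n = 3 against 3, from 1 limma fit over all genes and libraries, and a gene passed the test at a Benjamini-Hochberg false discovery rate (FDR) under 0.05. The lowest value in every library was 0.00457 CPM, and the read depth is unknown.

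Zbtb7b, which encodes Thpok, was nearly absent from the deficient cells, at 0.26 ± 0.11 CPM (n = 3), against 115 ± 30.3 in genetic and 93.7 ± 15 in animal controls. Zbtb7a, which encodes LRF, measured 89.5 ± 12.6, 90.3 ± 21 and 112 ± 19.3 CPM in the same order, so its per-gene value does not show the deletion. All 8 genes of the Treg list were measured, and they were not level between groups. Cd4, the co-receptor, fell in the deficient cells by 1.27 ± 0.15 on the log2 scale against the genetic controls (limma adjusted p = 0.00488) and by 1.32 ± 0.15 against the animal controls (adjusted p = 0.00338), from 678 to 1026 CPM in the 6 controls to 329 to 381 CPM. Il2ra, which encodes CD25, was at 416 to 551 CPM in the deficient libraries, below the 584 to 800.4 CPM of all 6 controls (log2 difference -0.52 ± 0.14, limma adjusted p = 0.16, and -0.71 ± 0.14, adjusted p = 0.0497). The latter call was kept in 3 of 9 fits without 1 library and missed (adjusted p 0.0788 to 0.14) without genetic control 8800, deficient library 232614 or 432614, or any animal control. Only the animal controls were described as sorted CD25hi. For Il2ra the gate and the deletion therefore cannot be told apart in the comparison with them. Ctla4 lay between 36.6 and 65.8 CPM in the 9 libraries, with the groups overlapping. The part of these differences in the results below was not tested. Foxp3 measured 24.8 to 38.1 CPM in the 6 YFP-positive libraries and 754 to 999.7 CPM in the animal controls, and the allele and the gate cannot be told apart here. In RNA from whole sorted populations, fewer cells expressing a gene and less RNA per cell cannot be told apart either. Nothing in the labels beyond the mouse numbers says how the libraries were prepared as separate samples, so the spread between them may be partly technical.

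All 4 S100 genes described here lie among the S100 genes of chromosome 3, in 2 places: S100a4 and S100a6 are 6.84 kb apart with S100a5 between them, S100a11 and S100a10 are 28.8 kb apart, and 2.90 Mb separates S100a6 from S100a11. The 250 bases before the annotated start are shown for S100a4, S100a6 and S100a11, because these genes differed in how far they stood below the controls. Capitals mark matches to any of 6 motifs searched on both strands: the AP-1 motif TGANTCA, the GC box GGGCGG, the Runx motif TGTGGT, the TATA box TATAAA, the forkhead motif TGTTTAC and the STAT motif TTCNNNGAA. The sequences are RefSeq, GRCm38.p6, plus strand, read 5′ to 3′.
S100a4, chr3:90603520-90603769: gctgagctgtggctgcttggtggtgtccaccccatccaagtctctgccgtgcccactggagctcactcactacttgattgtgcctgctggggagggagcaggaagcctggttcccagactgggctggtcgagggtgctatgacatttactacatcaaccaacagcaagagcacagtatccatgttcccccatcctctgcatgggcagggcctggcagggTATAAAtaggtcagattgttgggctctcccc
S100a6, chr3:90612644-90612893: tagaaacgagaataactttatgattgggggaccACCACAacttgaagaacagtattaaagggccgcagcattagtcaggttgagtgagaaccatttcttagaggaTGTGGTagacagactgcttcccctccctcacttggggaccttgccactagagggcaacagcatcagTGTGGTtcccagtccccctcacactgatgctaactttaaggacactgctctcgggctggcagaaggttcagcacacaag
S100a11, chr3:93520246-93520495: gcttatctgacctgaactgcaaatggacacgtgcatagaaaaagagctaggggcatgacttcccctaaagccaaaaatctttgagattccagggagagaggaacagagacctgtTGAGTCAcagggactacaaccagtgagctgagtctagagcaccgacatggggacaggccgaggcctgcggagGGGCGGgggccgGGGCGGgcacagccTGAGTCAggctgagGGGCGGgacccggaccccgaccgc

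S100a4 held a TATA box 31 bases before its start and no other match, S100a6 held 3 Runx matches, and S100a11 held 2 AP-1 matches and 3 GC boxes. None of these matches overlapped another. The promoter table covered 8 of the 10 genes, all but Lgals1 and S100a10. Among the 8, 4 (Vim, S100a4, Anxa2 and Anxa1) held the TATA box, which was present in 12.4% of the 32851 promoter windows of the same length. The GC box was in 4 (S100a11, Anxa2, Lgals3 and Ahnak), against 32.7% of all windows. AP-1 matches were in 2 (S100a11 and Anxa2), against 6.75%, and the Runx match was in S100a6 alone, against 14%. No forkhead or STAT match was found in the 8 windows, where 3.17% and 7.02% of all windows held one. The motifs were kept from a larger number of patterns after a first look at these windows, and a match describes letters, not binding.

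Lgals1 (chromosome 15, 78926725 to 78930465, GRCm38) encodes galectin-1. It measured 31.3, 30.1 and 37.1 CPM in the deficient libraries of mice 142114, 232614 and 432614. In the animal controls of those mice it measured 138, 130.1 and 178 CPM, and in genetic controls 124, 8619 and 8800 it measured 111, 177 and 139 CPM. Every deficient library thus lay below every control library, and the deficient libraries were close to one another. The log2 difference of the deficient cells was -2.10 ± 0.25 from the genetic controls (4.28-fold lower) and -2.17 ± 0.25 from the animal controls (4.51-fold lower). Within the 3 mice the log2 difference was between -2.27 and -2.11, the narrowest range of the genes that were at least 2-fold lower.

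Lgals3 (chromosome 14, 47367751 to 47386160) encodes galectin-3, a galectin with an extended N-terminal region that is abundant in macrophages. In deficient libraries 142114, 232614 and 432614 it measured 0.012, 0.937 and 0.026 CPM, the first and last of which are close to the lowest value of the table. The genetic controls held 3.44, 35.4 and 10.6 CPM and the animal controls 14.1, 32.2 and 11.1 CPM. The groups did not overlap, and the control libraries varied widely, from 3.44 to 35.4 CPM. The log2 differences, -7.36 ± 1.67 and -8.01 ± 1.67, depend on values near the floor, and they moved with the setting: they were -9.27 and -9.92 without deficient library 232614, and -3.29 and -3.85 on the log2(CPM + 1) scale.

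Because macrophages express Lgals3, myeloid transcripts were set beside it. From the marker list 5 genes, Lyz2, Csf1r, Emr1, Fcer1g and Tyrobp, were picked after their values were seen, and their summed level was 353 CPM in genetic control 8619, the library with the most Lgals3, against 14.2 and 19 CPM in the other genetic controls. In the animal controls the sum was 6.94, 1.26 and 1.08 CPM while Lgals3 stood at 14.1, 32.2 and 11.1 CPM, and in the first of these Lyz2 was at 3.11, Tyrobp at 2.1 and Fcer1g at 1.73 CPM. In the deficient libraries the sum was 11, 64.3 and 44.7 CPM while Lgals3 was below 1 CPM. Cybb, a phagocyte oxidase subunit of the same list outside these 5, went the other way, at 48, 6.72 and 60.5 CPM in the animal controls against 0.00457, 23.7 and 1.2 CPM in the deficient libraries. Cd68, also of the list, was at 0.0839 CPM in genetic control 8619. It measured 14.6, 4.46 and 0.00457 CPM in the deficient libraries and 0.00457, 0.00457 and 4.98 CPM in the animal controls. Cd300a of the list was at 8.41 CPM in genetic control 8619 and 10.6 CPM in deficient library 232614. Over the whole myeloid and dendritic list, 11 of 23 genes were measured, and their sum was 545 to 652 CPM in the deficient cells, 794 to 1101 CPM in the genetic and 788 to 921 CPM in the animal controls. Most of that sum was Ctss, Cst3 and Lgals3bp, and Ctss, a lysosomal protease, fell against the animal controls (log2 difference -0.93 ± 0.12, limma adjusted p = 0.00617). The part of this list in the levels of Lgals3 and of the other genes was not tested.

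**Figure D1:**
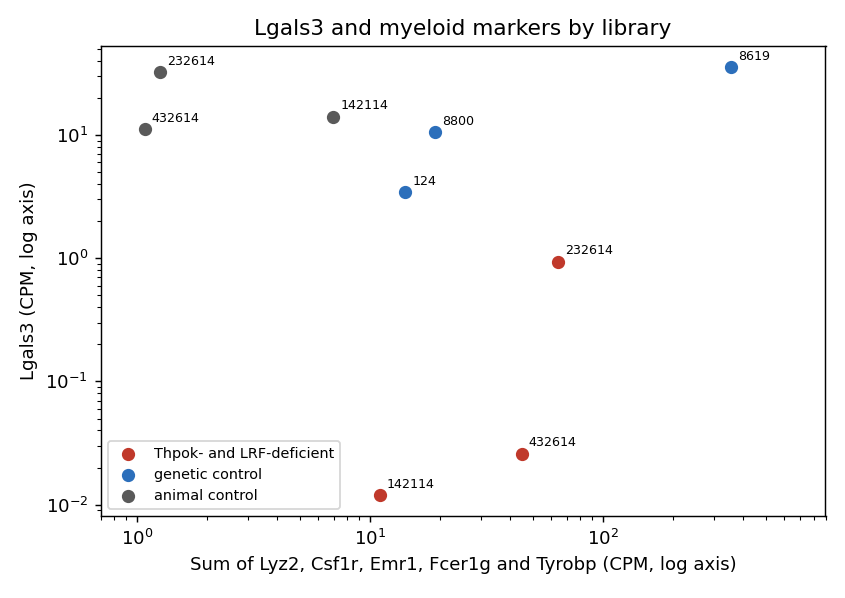
Lgals3 (vertical, CPM, log axis) against the sum of 5 myeloid genes (horizontal, CPM, log axis) in each of the 9 libraries, labelled by mouse number. Each point is 1 library, and the 5 genes were picked from the marker list after their values were seen. The 3 animal controls sit at 11.1 to 32.2 CPM of Lgals3 with 1.08 to 6.94 CPM of these 5 genes, and genetic control 8619 stands alone at 353 CPM.

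S100a4 (chromosome 3, 90603771 to 90606045), which encodes a regulator of non-muscle myosin and cell movement, measured 1.27, 1.24 and 1.51 CPM in the deficient libraries. The genetic controls held 11.4, 22.1 and 14.3 CPM, and the animal controls 22.1, 23.7 and 18 CPM. The groups did not overlap, and the deficient libraries varied least. Its log2 differences were -3.52 ± 0.60 (11.47-fold) from the genetic and -3.98 ± 0.60 (15.81-fold) from the animal controls. These were the largest among the 8 genes measured above 1 CPM in every library. Their size depends on the low deficient levels: on the log2(CPM + 1) scale they were -2.81 and -3.24. A predicted protein-coding gene, Gm42674, overlaps S100a4 on the same strand in the annotation, and how shared reads were counted was not given in the sources used here.

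S100a6 (chromosome 3, 90612882 to 90624181) encodes calcyclin, a protein linked to proliferation and stress. Its level was 11.5, 20.9 and 19.2 CPM in the deficient libraries, 31.3, 73.9 and 36.7 CPM in the genetic controls and 84.4, 99.2 and 61 CPM in the animal controls. The deficient libraries were the lowest, and the genetic controls lay between them and the animal controls except for library 8619, which overlapped the latter. The log2 differences were -1.40 ± 0.42 and -2.26 ± 0.42. Without genetic control 8619 the first of these was -1.02.

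S100a4 and S100a6 lie close together but did not differ from the controls by the same amount. Within a library, S100a6 exceeded S100a4 by 1.36 to 1.74 on the log2 CPM scale in the genetic controls and by 1.76 to 2.07 in the animal controls. In the deficient libraries the gap was 3.18 to 4.07, above all 6 control libraries. These gaps compare counts without a correction for length, so only their change between libraries is meaningful.

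S100a11 (chromosome 3, 93520488 to 93526287), whose product binds annexin A1 and takes part in membrane repair, measured 23.2, 21.4 and 33.5 CPM in the deficient libraries. It measured 48.5, 75.4 and 50.1 CPM in the genetic controls and 75.7, 81.3 and 80.9 CPM in the animal controls. All 3 groups were separate for this gene, with the deficient cells lowest and the animal controls highest. Its log2 differences were -1.15 ± 0.30 and -1.64 ± 0.30.

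S100a10 (chromosome 3, 93555080 to 93564643) encodes p11, the partner of annexin A2, and it differed from the other S100 genes of the set. The deficient libraries held 219, 188 and 209.6 CPM and the genetic controls 258, 208 and 224 CPM, and these groups overlapped. The animal controls held 293, 269 and 351 CPM, above both YFP-positive groups. The log2 difference was -0.16 ± 0.16 from the genetic and -0.56 ± 0.16 from the animal controls. S100a10 exceeded S100a11 by 2.65 to 3.24 on the log2 CPM scale within the deficient libraries, against 1.47 to 2.41 in the genetic and 1.72 to 2.12 in the animal controls.

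Anxa2 (chromosome 9, 69453620 to 69491795) encodes annexin A2. It measured 25, 30.0 and 33.9 CPM in the deficient libraries, 40.3, 112 and 82.5 CPM in the genetic controls and 83.4, 79.1 and 96.7 CPM in the animal controls. The deficient libraries lay below all controls, and the genetic controls were the most spread. The log2 differences were -1.29 ± 0.37 and -1.55 ± 0.37, the first of which was -0.97 without genetic control 8619. An antisense gene, Gm16144, overlaps Anxa2, and whether the counting used strand was not given in the sources used here.

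Both partners of the annexin A2 complex stood apart in size. S100a10 exceeded Anxa2 by 2.63 to 3.13 on the log2 CPM scale within the deficient libraries and by 1.76 to 1.86 within the animal controls. In the genetic controls the gap was 0.89 to 2.68, and control 124, at 2.68, fell within the range of the deficient libraries. The wider gap in the deficient cells therefore separated them from the animal controls but not from all genetic controls.

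**Figure D2:**
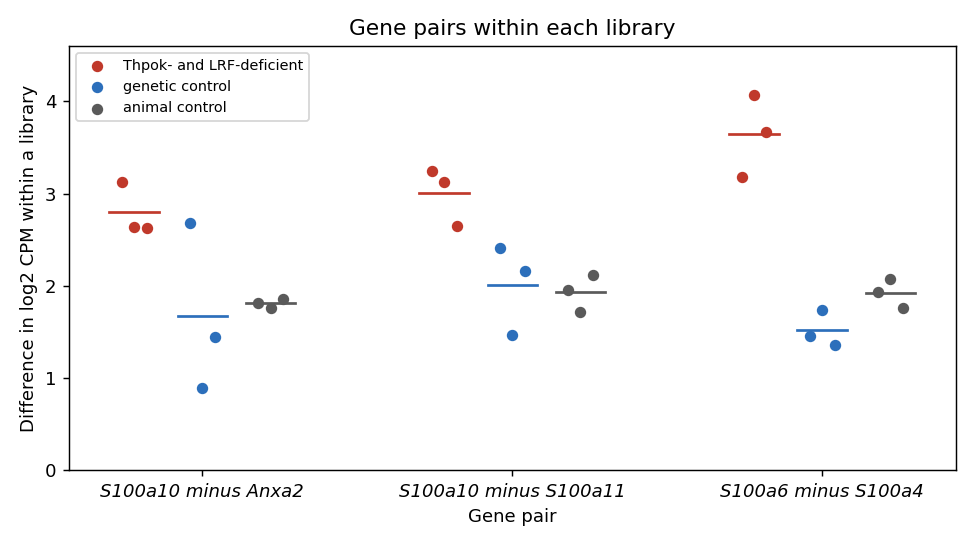
Differences in log2 CPM between 2 genes within each library (vertical) for 3 gene pairs (horizontal); points are libraries and short lines are group means, n = 3. S100a6 minus S100a4 lies at 3.18 to 4.07 in the deficient libraries and at or below 2.07 in all 6 controls, while S100a10 minus Anxa2 overlaps between the deficient cells and genetic control 124.

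Anxa1 (chromosome 19, 20373428 to 20390944), which encodes the glucocorticoid-induced annexin A1, was barely present. It stood at the lowest value of the table in deficient libraries 142114 and 232614, in genetic control 8619 and in animal control 142114, and at 0.026 CPM in deficient library 432614 and 0.00789 CPM in animal control 432614. The remaining values were 6.55 and 2.78 CPM in genetic controls 124 and 8800 and 9.29 CPM in animal control 232614. All groups overlapped, and no difference is given for Anxa1.

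Ahnak (chromosome 19, 8989284 to 9076914) encodes the scaffold protein AHNAK, which in T cells is known for its part in calcium entry after receptor stimulation. It measured 52.6, 24.9 and 48 CPM in the deficient libraries, 140.2, 148 and 183 CPM in the genetic controls and 269.8, 208 and 186 CPM in the animal controls. The 3 groups did not overlap. The log2 differences were -1.97 ± 0.30 (3.92-fold) and -2.46 ± 0.30 (5.50-fold), and they were between -3.06 and -1.96 within the 3 mice.

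Vim (chromosome 2, 13573927 to 13582826) encodes vimentin and had the highest CPM of the set. The deficient libraries held 477, 483 and 500.0 CPM, the genetic controls 644, 586 and 616 CPM and the animal controls 591, 654 and 572 CPM. The deficient libraries were again the lowest, but by little: the log2 differences were -0.34 ± 0.09 (1.26-fold) and -0.31 ± 0.09 (1.24-fold). Because Vim varied so little among libraries, a small difference still left the groups separate.

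**Figure D3:**
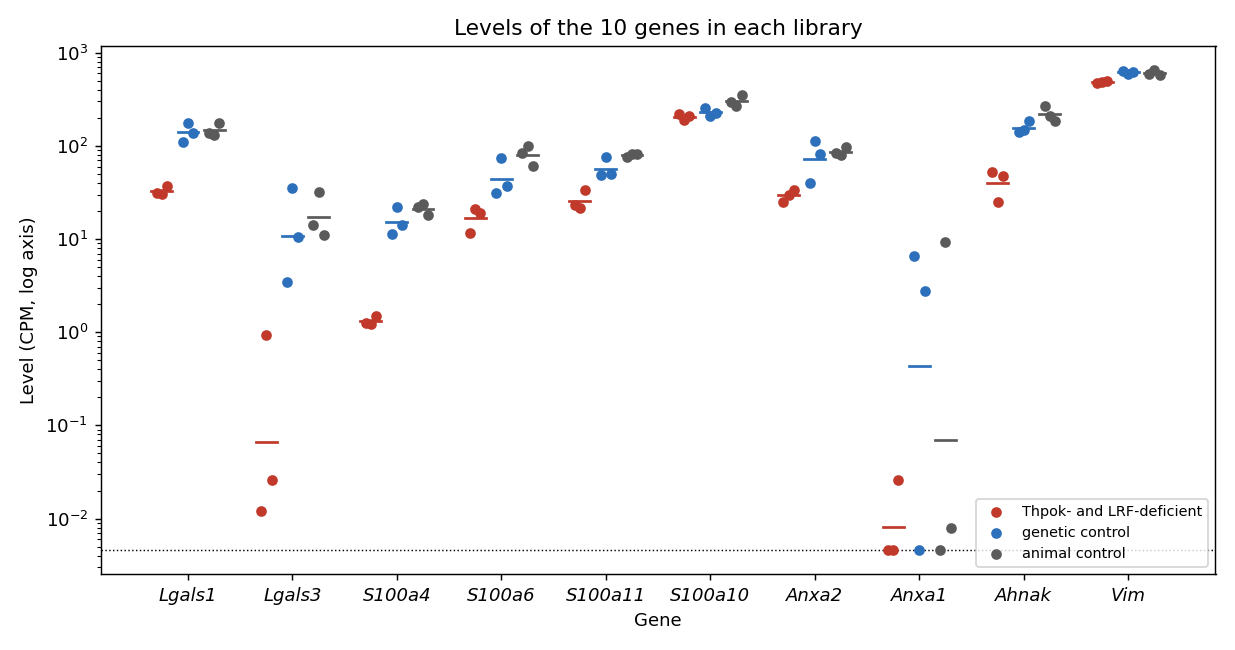
Level of each of the 10 genes in CPM (vertical, log axis) in every library; points are libraries, short lines are geometric means of 3 libraries per group, and the dotted line is the lowest value of the table. Deficient libraries lie below all control libraries for 8 genes, the exceptions being S100a10 and Anxa1.

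By count, 8 of the 10 genes (Lgals1, Lgals3, S100a4, S100a6, S100a11, Anxa2, Ahnak and Vim) were lower in every deficient library than in all 6 control libraries. Against the genetic controls alone these 8 did not overlap, where 7.28% of all genes were lower without overlap. Against the animal controls S100a10 made 9, where 8.10% of all genes were. The median log2 difference of the 10 genes was -1.68 from the genetic and -2.22 from the animal controls, where the median over all genes was 0.04 in both comparisons. The 2 comparisons share the deficient libraries, and the genes were chosen with them known, so these counts support nothing further.

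In the limma fit over all genes, Lgals1, S100a4 and Ahnak were among the 0.533% of genes that passed the test and were lower than in the genetic controls (0.869% passed in either direction). Against the animal controls Lgals1, S100a4, S100a6, S100a11 and Ahnak were among the 0.584% that passed and were lower (0.891% in either direction). With the mouse as a replicate block, as a fixed term, the 5 became 2 (Lgals1 and Ahnak). Of the 3 against the genetic controls, 1 was left (Lgals1) without genetic control 124, 8619 or 8800, and 2 without deficient library 142114 or 432614 or any of the 3 animal controls (Lgals1 and Ahnak). Without deficient library 232614 they were Lgals1, Lgals3 and Ahnak. Of the 5 against the animal controls, 2 were left (Lgals1 and Ahnak) without any 1 of the animal controls, and 3 (with S100a4) without genetic control 8800 or deficient library 142114. There were 4 without genetic control 124 (Lgals1, S100a4, Anxa2 and Ahnak), deficient library 232614 (Lgals1, Lgals3, S100a4 and Ahnak) or deficient library 432614 (Lgals1, S100a4, S100a11 and Ahnak). Fitting only the 6 libraries compared left 0 of the 3 and 1 of the 5 (Lgals1). Against the genetic controls S100a4 did not pass on the log2(CPM + 1) scale, and Ahnak did not pass without the variance trend. These calls describe genes chosen for the differences, and nothing is read from them or from how often they were kept.

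**Figure D4:**
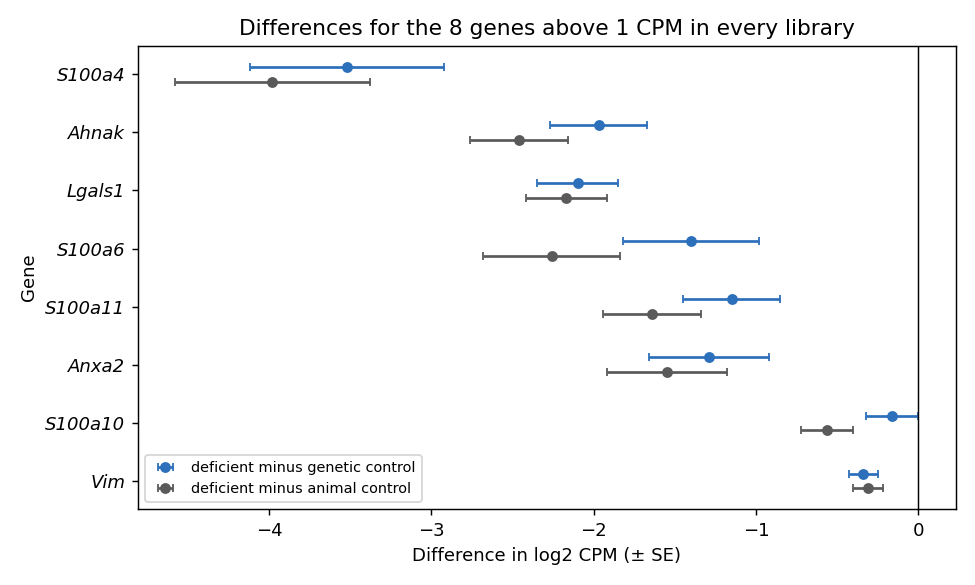
Log2 differences ± SE (horizontal) of the deficient cells from the genetic (blue) and animal (grey) controls for the 8 genes above 1 CPM in every library (vertical), n = 3 against 3. S100a4 stands farthest from 0 at -3.52 and -3.98, and Vim and S100a10 stand nearest.

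Compared per length, the order of the genes differed between groups. In the animal controls S100a10 was highest at 251 ± 35.1 CPM per kb of merged exon (n = 3), followed by Lgals1 at 165 ± 28.7, S100a11 at 155 ± 6.09 and Vim at 128 ± 9.08. Lgals1 and S100a11 did not differ beyond their spread. S100a6 (59.7 ± 14.1), S100a4 (36.4 ± 5.08) and Anxa2 (23.2 ± 2.46) followed, then Ahnak (11.1 ± 2.18) and Lgals3 (10.3 ± 6.14), which overlapped, and Anxa1 (1.07 ± 1.84). In the deficient cells S100a10 was still highest at 169.6 ± 13.5 CPM per kb, and Vim came next at 103 ± 2.52. Lgals1, at 36.3 ± 4.1 CPM per kb, there stood below S100a11, at 50.9 ± 12.8. Ahnak, the longest at 19.938 kb, had a high CPM but a low level per length, at 2.1 ± 0.745 CPM per kb in the deficient cells.

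The 2 control groups, which both keep Thpok and LRF, were compared for the same genes, and none of the 10 passed the test. Of all genes 0.0365% passed (limma, 5 of 13698), Foxp3 among them. At an unadjusted p under 0.05, which 6.62% of all genes met, there was 1 of the 10, S100a10, lower in the genetic controls (log2 difference -0.40 ± 0.16, limma adjusted p = 0.706). S100a10, S100a11 (-0.48 ± 0.30, adjusted p = 0.829) and Ahnak (-0.49 ± 0.30, adjusted p = 0.828) were lower in every genetic control than in every animal control, where 10.4% of all genes did not overlap in either direction. Lgals1 (-0.08 ± 0.25, adjusted p = 1) and Vim (0.02 ± 0.09, adjusted p = 1) were the nearest to 0. S100a6 had the largest difference among the genes above 1 CPM, -0.86 ± 0.42 (adjusted p = 0.768). That value was -1.24 without genetic control 8619 and -1.43 without that library and animal control 432614. Over all alternatives the S100a6 difference ranged from -1.43 to -0.62. The sign of Lgals1, Lgals3, Anxa2 and Vim turned in at least 1 alternative, and S100a10 ranged from -0.49 to -0.22. The median of the 10 was -0.43, against -0.02 over all genes, and between -0.51 and -0.13 without 1 library.

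Genetic control 8619 had the highest value of its group for 6 of the 10 genes (Lgals1, Lgals3, S100a4, S100a6, S100a11 and Anxa2). That library also held erythroid transcripts (76.1 summed CPM over the 6 of 11 markers that were measured, against 0.0917 and 0.837 CPM in controls 124 and 8800) and the myeloid genes given above. Deficient library 232614 held 40.8 CPM of the erythroid markers, and the other 5 deficient and animal control libraries held 1.13 CPM or less. Their part in the 6 values was not tested. Without it the log2 differences from the genetic controls were -1.93 for Lgals1, -3.26 for S100a4, -2.01 for Ahnak, -0.95 for S100a11 and -0.37 for Vim. Of the stromal and endothelial markers, whose cells also make vimentin and galectin-1, 1 of 14 was measured, Pecam1, at 64.3 to 148 CPM in the deficient cells, 226 to 243 CPM in the genetic and 167 to 220.1 CPM in the animal controls. T cells express Pecam1 too, and its part was not tested. B cell and plasma cell markers (15 of 19 measured) summed to 877 to 1324, 1106 to 1698 and 1733 to 2467 CPM, and NK markers (4 of 10) to 77 to 139.8, 16.4 to 57.3 and 31.7 to 43.6 CPM, in that order of groups.

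The other galectins, S100 genes and annexins in the table were read next, from lists of the family names. Of 14 measured outside the set, 0 passed the limma test in any of the 3 comparisons. At an unadjusted p under 0.05, 2 were higher than in the genetic controls (Anxa4 and Anxa6) and 1 higher than in the animal controls (Anxa4), with 0 lower in both. Of all genes 10.6% and 11.9% were under that p in either direction, so these small counts do not stand out. The median log2 difference of the 14 was 0.04 from the genetic and 0.39 from the animal controls.

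Lgals9, which encodes the tandem-repeat galectin-9, a ligand of TIM-3, measured 382 ± 47.5, 412 ± 26.6 and 424 ± 26.3 CPM in deficient cells, genetic controls and animal controls. It did not pass the test, with log2 differences of -0.12 ± 0.12 (limma adjusted p = 0.818) and -0.16 ± 0.12 (adjusted p = 0.702). Lgals8, also a tandem-repeat galectin, measured 69.7 ± 34.1, 48.5 ± 12.3 and 54.3 ± 12 CPM. Lgals3bp, a secreted glycoprotein that binds galectin-3 and is no galectin itself, measured 150.1 ± 30.1, 214 ± 60.3 and 172 ± 39.8 CPM, with the groups overlapping. Of the 6 galectin-list genes outside the set, 0 were lower in every deficient library than in either control group. Over all genes 7.28% were so against the genetic and 8.10% against the animal controls, so 0 of 6 allows no reading.

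S100a13, whose start lies 89.3 kb before that of S100a4 on chromosome 3 and takes part in the release of leaderless proteins, measured 62.2 ± 9.07, 66 ± 8.03 and 65.1 ± 11.9 CPM. Its log2 differences of -0.09 ± 0.25 (limma adjusted p = 0.96) and -0.06 ± 0.25 (adjusted p = 0.976) stood beside those of -3.52 and -3.98 for S100a4. S100pbp, which binds S100P and is not an S100 gene, measured 18.6 ± 12, 18.8 ± 3.14 and 9.39 ± 4.5 CPM. In the annotation 14 S100 genes lie on chromosome 3, of which 6 were in the table. The deleted Zbtb7b lies on the same chromosome, 1.21 Mb before S100a4.

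Among annexins, Anxa4, a membrane-binding annexin of epithelia, stood opposite to Anxa2. It measured 55.7 ± 14.7 CPM in deficient cells, 16.5 ± 9.19 in genetic controls and 16.2 ± 6.02 in animal controls, and every deficient library lay above every control. The log2 differences of 1.86 ± 0.49 (limma adjusted p = 0.157) and 1.81 ± 0.49 (adjusted p = 0.16) did not pass the test. Anxa6, the most abundant annexin transcript by CPM, measured 892 ± 72.4, 728 ± 84.1 and 764 ± 69.6 CPM (0.30 ± 0.11, adjusted p = 0.375, and 0.22 ± 0.11, adjusted p = 0.47). Anxa5, whose product binds phosphatidylserine, measured 177 ± 20.7, 161 ± 32.6 and 184 ± 28.2 CPM, and Anxa7 77.5 ± 22, 50.4 ± 11.1 and 51.5 ± 22.8 CPM. Anxa11 measured 15 ± 3.04, 15.8 ± 4.16 and 11.8 ± 1.36 CPM, so that of the annexins above 10 CPM only Anxa2 was lower in every deficient library than in all 6 controls.

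**Figure D5:**
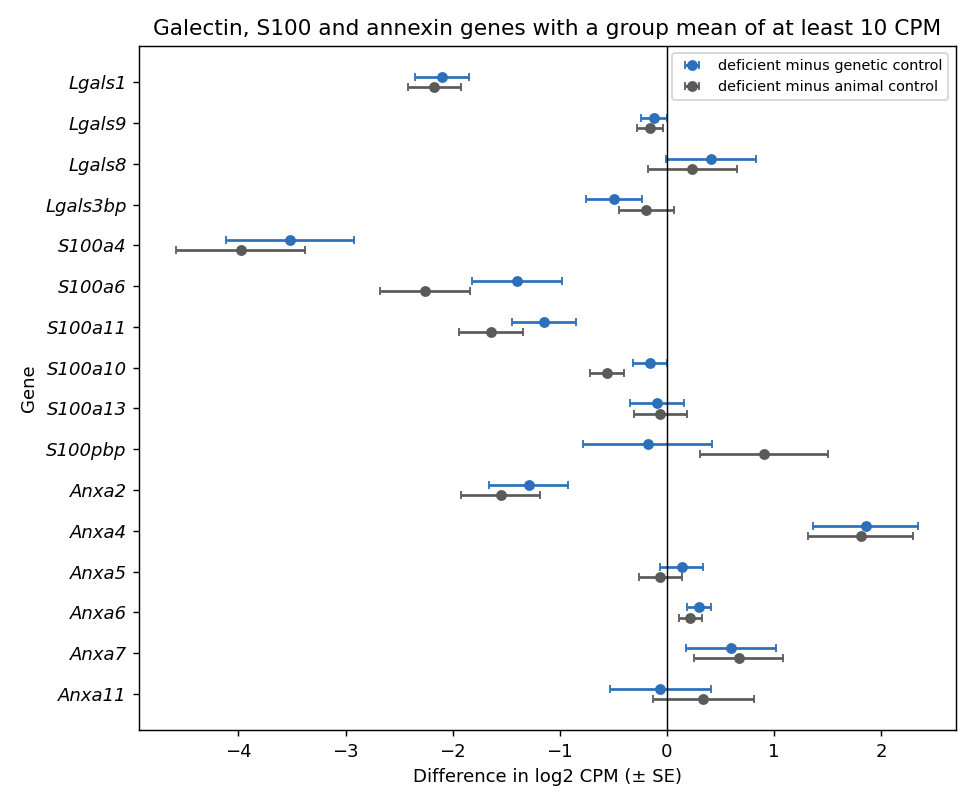
Log2 differences ± SE (horizontal) of the deficient cells from the genetic (blue) and animal (grey) controls for galectin, S100 and annexin family names with a group mean of at least 10 CPM (vertical), n = 3 against 3. Lgals3 is not drawn because deficient libraries 142114 and 432614 were near the lowest value. Lgals1, S100a4, S100a6, S100a11 and Anxa2 lie to the left of 0, and Anxa4 lies to the right at 1.86 and 1.81.

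Lists of related genes were set beside the 10, each without them. Of the intermediate filament, lamin and giant linker genes, 6 were measured and 0 passed the limma test against either control, with 0 higher and 1 lower at an unadjusted p under 0.05 against the genetic and 0 and 2 against the animal controls. Of membrane repair and calcium-binding partners, 14 were measured and 0 passed, with 0 higher and 2 lower unadjusted against the genetic and 1 and 3 against the animal controls. Over all genes 5.66% and 6.34% were lower at that p, and 4.96% and 5.57% higher, and lists of this size allow no reading of such counts. Their median log2 differences were -0.24 and -0.12 from the genetic controls and -1.84 and -0.24 from the animal controls, against 0.04 over all genes in both. In the first list only 3 of the 6 differences were negative in each comparison, so its -1.84 describes no shared fall.

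Among glycan-making enzymes and receptors that galectins bind, 31 were measured. Against the genetic controls 1 rose (Cd3e) and 1 fell (Itgb1), where 0.869% of all genes passed in either direction. Against the animal controls 0 rose and 1 fell (Itgb1), where 0.891% passed. The median log2 differences were -0.05 and -0.10, against 0.04 over all genes in both, and counts this small allow no reading of the list. Itgb1 encodes the integrin beta-1 chain, a glycoprotein bound by galectin-1 (-2.57 ± 0.17, limma adjusted p = 1.48e-04, and -2.63 ± 0.17, adjusted p = 8.75e-05). Cd3e, a T cell receptor subunit, rose by 0.47 ± 0.09 with a limma adjusted p of 0.0398, and its adjusted p was 0.0512 to 0.137 in the 9 fits without 1 library, above the threshold in each.

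Genes often seen with this group in activated and memory T cells formed a list of 31 measured genes, collected with earlier results of these data known, which therefore gives no independent evidence of a direction. In it 0 rose and 6 fell against each control, where 0.533% of all genes fell against the genetic and 0.584% against the animal controls. The median log2 difference was -0.83 from the genetic and -0.91 from the animal controls, against 0.04 over all genes in both. Ly6a, which encodes the surface antigen Sca-1, fell against both (-5.00 ± 0.24, limma adjusted p = 3.13e-05, and -4.31 ± 0.24, adjusted p = 6.45e-05). Capg, an actin-capping protein, fell by 1.73 ± 0.16 (limma adjusted p = 0.00111) and by 2.14 ± 0.16 (adjusted p = 2.82e-04). In a list of 12 naive and recirculating T cell genes, 1 rose (Ccr9) and 1 fell (Igfbp4) against the genetic controls, and 1 rose (Ccr9) and 0 fell against the animal controls. Over all genes 0.869% and 0.891% passed in either direction, and counts this small allow no reading of the list. Igfbp4, a secreted binding protein of insulin-like growth factors, had a limma adjusted p of 0.0336, and of 0.0547 to 0.129 in 7 of the 9 fits without 1 library (all but those without deficient library 232614 or genetic control 124). Ccr9, a gut-homing chemokine receptor, measured 415 ± 73.1 CPM in deficient cells, 23.6 ± 17.8 in genetic and 44.3 ± 26.4 in animal controls. Every deficient library lay above every control (log2 difference 4.43 ± 0.59, limma adjusted p = 0.00977, and 3.39 ± 0.59, adjusted p = 0.029). It passed in 9 of 9 such fits against the genetic controls and in 3 of 9 against the animal controls. The latter missed the threshold without genetic control 8619 (0.0502), any deficient library (0.0761 to 0.0966) or animal controls 432614 (0.0997) and 232614 (0.102).

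The genes whose pattern was most like Lgals1 were found as those with the smallest root-mean-square difference of log2 values, each centred on its own mean, over the 9 libraries. The search covered 8500 genes outside the set with a group mean of at least 10 CPM, without predicted genes, clone-named genes and receptor segments. The closest were Capg (0.270), Smpdl3a (0.300), Nt5e (0.306), Itgb1 (0.313) and Slc48a1 (0.333). Capg measured 131 ± 11.9 CPM in deficient cells, 438 ± 71.4 in genetic controls and 581 ± 69.3 in animal controls. Nt5e, which encodes the ectoenzyme CD73, measured 117 ± 12.1, 347 ± 56 and 429 ± 49.4 CPM. Smpdl3a, a phosphodiesterase related to acid sphingomyelinase, measured 114 ± 25.3, 355 ± 52.1 and 420.2 ± 71.5 CPM, and Slc48a1, a heme transporter, 31.4 ± 6.1, 101 ± 19.6 and 93.3 ± 15 CPM. Within the set Ahnak (0.408), Anxa2 (0.412) and S100a11 (0.418) were the closest to Lgals1, farther than these 5 genes. The 5 were the nearest of 8500 and the set offers far fewer genes, so nothing is read from that order.

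To the mean centred profile of all 10 genes the closest were Itgb1 (0.396), Ass1 (0.402), Capg (0.459), Tmem238 (0.465), Pck2 (0.469), Tmem154 (0.475), Nrp1 (0.509) and Tyk2 (0.511). That mean is weighted toward Lgals3 and Anxa1, whose values near the floor move it most. Ass1, the argininosuccinate synthase of arginine synthesis, measured 16 ± 5.92 CPM in deficient cells, 96.7 ± 14.7 in genetic controls and 117 ± 4.57 in animal controls. Nrp1, a semaphorin co-receptor of thymus-derived Treg cells, measured 78.4 ± 27.9, 398 ± 26.7 and 744 ± 157 CPM. These genes were picked for their likeness, so their differences are a description.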

How the data were processed

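Per the labels' protocols, RNA came from an RNeasy micro kit, and libraries were made with SMARTer Ultra Low Input and Nextera XT chemistry. The submitters' processing notes name bcl2fastq 1.8.4, STAR 2.4.0h, the mm10 genome and limma without a version. The counting tool, annotation and normalization settings were not given in the sources used here.

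As deposited by the authors, values are log2. Their linear values sum to 999252 to 999256 per library and all 9 columns share the lowest (-7.77) and highest (13.42) value, so they were read as quantile-normalized log2 CPM. Between 8.0% and 11.4% of genes sat at the lowest value per library. Of 13702 rows, 4 exact duplicates were dropped. Quantile normalization fixes the distribution in each library, so a change shared by most genes would not be seen.

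Limma-trend (limma 3.58.1, R 4.3.3) was fitted to 13698 genes with 3 group means, no pseudocount and no filter, with two-sided tests, FDR 0.05, and the script was tested on simulated data. The plan allowed for counts as well; log2 values took the limma branch. Genes outside the set were named by rule: family genes with a group mean of at least 10 CPM, up to 4 genes past the test per list and comparison, and the 8 and 5 closest profiles. The members, lists and tests were chosen with earlier results of these data known. Coordinates and exon lengths are GENCODE M21 (GRCm38), and gene symbols were used as in the table. The deficient cells and animal controls of the same number come from the same mouse; after group means were removed, same-mouse correlations across 8242 genes were 0.0165, 0.0319 and 0.0122, against -0.0271 to 0.0113 between mice.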

Additional observations from a re-analysis of the deposited data

How the results depend on the processing

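All log2 differences of the 9 genes other than Anxa1 from either control kept their sign under every alternative run (17 against the genetic and 18 against the animal controls), while Anxa1 turned to 0.44 in 1 of the latter. For 8 of the 9, every deficient library lay below all 6 controls, so leaving out libraries could not turn the sign. The kept signs are therefore no test of these genes. Fitting only the 6 libraries compared lowered the genes past the limma test from 119 to 22 against the genetic controls (0 of the 10), from 122 to 52 against the animal controls (1 of the 10, Lgals1) and from 5 to 3 between the controls. Without the variance trend 3 of the 10 passed against the animal controls and 32 genes passed between the controls. With the mouse as a replicate block (fixed term) 2 of the 10 passed against the animal controls, and the block, fixed or random, moved no count of all genes by over 1.5 times. With log2(CPM + 1) the median log2 difference of the 10 from the animal controls was -1.87, since that scale compresses low values. An alternative chosen after seeing the data left out the 2 libraries with the highest summed myeloid list, genetic control 8619 (1101 CPM) and animal control 432614 (921 CPM). In animal control 432614 Ctss made up 576 CPM of that sum. Its sum of the 5 myeloid genes given above was 1.08 CPM, the lowest of the 9 libraries. In that fit 20 genes passed against the genetic controls (0 of the 10), 20 against the animal controls (0 of the 10) and 1 between the controls. In the fits without 1 library, 48 to 93 genes (1 to 3 of the 10) passed against the genetic controls, 58 to 115 (2 to 5 of the 10) against the animal controls and 4 to 10 (0 of the 10) between the controls. The medians of the 10 there were -1.88 to -1.47, -2.31 to -1.86 and -0.51 to -0.13, and 0 other family genes passed in any of those fits. Smaller fits have fewer libraries to estimate the spread; other causes of these shifts were not tested. With 3 libraries per group and unknown depth, differences near the floor (Lgals3, Anxa1) are the least certain.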
